A study of Mus musculus with 17 samples.

Results

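Guanylate-binding proteins (GBPs) and immunity-related GTPases (IRGs) were examined in C2C12 cells, a mouse myoblast line, carrying an empty vector, SRF or a fusion of SRF with another gene. The genes were chosen by symbol from a list of 10, drawn up with earlier results of these data known, in which several of them stood out in the SRF-PDGFRB line. Of the 10, 9 were found in the deposited count table of 15062 genes: the GBP genes Gbp2, Gbp2b, Gbp3 and Gbp7, and the IRG genes Iigp1, Irgm1, Irgm2, Igtp and Gm12185. Gbp4 was not analysed here. RNA was sequenced from 17 libraries in 6 groups, with 3 libraries each for the empty vector pMSCV, for SRF and for the fusions SRF-FOXO1, SRF-RELA and SRF-ICA1L, and 2 for SRF-PDGFRB. All groups were C2C12 myoblasts kept in DMEM with fetal bovine serum, and all but the pMSCV control carry SRF or a fusion of it. SRF, serum response factor, is a transcription factor, and the fusion names give SRF and the partner gene. The labels do not say whether libraries of a group came from separate cultures or clones, so the p-values measure only the spread between these libraries, which may be technical.

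GBPs and IRGs are large GTPases that cells make in response to interferon. They gather on the membranes around intracellular bacteria and parasites and help to break these compartments open. Interferon gamma acts through its receptor, the kinases JAK1 and JAK2 and gamma-activated (GAS) elements near its target genes. Type I interferons act through a complex with STAT2 and IRF9, which binds the interferon-stimulated response element (ISRE). Among the IRGs, Irgm1, Irgm2 and Igtp (also called Irgm3) are regulatory members that sit on the cell's own membranes, while Iigp1 (Irga6) is an effector that loads onto the membranes of the pathogen's compartment.

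The promoters of these genes are shown because they hold the letters that the interferon-regulated factors recognise. RefSeq entries (build GRCm38.p6, 250 bases before to 50 bases after each start) matched 8 of the 9 genes, all but Iigp1, with 9 entries since Gbp3 had 2. Both strands were searched for the ISRE core. Windows of 60 bases are given 5′ to 3′ on the gene's strand, with each match to the ISRE core in capitals (matches on the opposite strand appear as their complement).

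Gbp2 (chr3:142620579-142620638, plus strand): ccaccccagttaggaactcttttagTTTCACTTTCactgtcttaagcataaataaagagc
Gbp2b (chr3:142594685-142594744, plus strand): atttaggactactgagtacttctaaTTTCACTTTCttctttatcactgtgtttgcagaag
Gbp3 (chr3:142559977-142560036, plus strand): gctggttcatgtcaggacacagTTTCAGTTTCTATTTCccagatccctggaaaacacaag
Gbp7 (chr3:142530258-142530317, plus strand): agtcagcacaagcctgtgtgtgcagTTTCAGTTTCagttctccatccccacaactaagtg
Irgm1 (chr11:48871413-48871472, minus strand): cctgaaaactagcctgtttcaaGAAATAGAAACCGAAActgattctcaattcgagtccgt
Irgm2 (chr11:58214888-58214947, plus strand): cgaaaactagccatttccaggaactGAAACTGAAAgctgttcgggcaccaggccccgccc
Igtp (chr11:58199497-58199556, plus strand): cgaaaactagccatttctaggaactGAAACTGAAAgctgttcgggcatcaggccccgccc
Gm12185 (chr11:48927223-48927282, minus strand): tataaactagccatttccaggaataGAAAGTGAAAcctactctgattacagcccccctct

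All 8 genes had the ISRE core in an entry, whereas 3.44% of all 32851 promoters in the same table and 2.99% of the 13272 promoters of genes in the count table held it. The match ended 49 bases before the start in Gbp2, 127 in Gbp2b, 43 in Gbp7, 54 in Irgm2, 24 in Igtp and 65 in Gm12185. Gbp3 and Irgm1 each had 2 overlapping matches, ending 29 and 14 bases before the start. These distances are to the RefSeq starts. By the GENCODE gene limits given below, the windows of Irgm1, Irgm2 and Gm12185 lie inside the gene, and that of Gbp2 partly so. The GAS core TTCNNNGAA, which reads the same on both strands, was found in 4 of the 8 genes (Gbp7, Irgm2, Igtp and Gm12185). By entry this was 4 of 9 (44.4%), against 8.3% of all promoters. In Irgm2, Igtp and Gm12185 the GAS core lay 2 bases from the ISRE core. The windows of Irgm2 and Igtp were identical at 58 of 60 positions. The CArG box, the site that SRF binds, and the kappaB site, which RELA binds, were each searched by name on both strands, and none of the 9 entries held either (1.63% and 4.51% of all promoters did). A match of letters is a description and not a measured binding site, and no match says only that the letters were not in this window.

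The 9 genes lay in a few clusters (GENCODE M21, build GRCm38). Gbp7 (ENSMUSG00000040253), Gbp3 (ENSMUSG00000028268), Gbp2b (ENSMUSG00000040264) and Gbp2 (ENSMUSG00000028270) were all on the plus strand of chromosome 3, between positions 142530342 and 142638008. Irgm1 (ENSMUSG00000046879, chr11:48861968-48871683) and Gm12185 (ENSMUSG00000048852, chr11:48904656-48992226) were on the minus strand of chromosome 11. Igtp (ENSMUSG00000078853, chr11:58199556-58207591) and Irgm2 (ENSMUSG00000069874, chr11:58199618-58222782) were on its plus strand and shared 162 exon bases. Iigp1 (ENSMUSG00000054072) was on chromosome 18. On the same strand, Gbp7 shared 637 exon bases with Gm43802, and Gm12185 shared 223 with Tgtp1. Because family members resemble each other, reads could be shared: stretches of 100 bases that also occur in transcripts of another gene made up 10% of those in Gbp7 (with Gbp3 and Gm43802), 7.41% in Gm12185 (among others with Tgtp1 and Tgtp2), 5.16% in Igtp (with Irgm2), 3.01% in Irgm2 (with Igtp) and 0.694% in Gbp3. No stretch of that length in Gbp2, Gbp2b, Iigp1 or Irgm1 was shared. At 50 bases the shares were larger: 19.5% in Gm12185, 12.7% in Gbp7, 11.8% in Igtp, 7.77% in Irgm2 and 3.75% in Gbp3. In Gbp2, Gbp2b, Iigp1 and Irgm1 they were 2.03%, 1.84%, 1.69% and 0.31%. How the authors' counting treated shared reads is not given in the sources used here.

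Library totals ran from 20901442 to 23543734 counts. Values are in CPM, counts relative to a library's total after scaling with edgeR's TMM factors. The 2 SRF-PDGFRB libraries differed from each other in muscle genes: Myog, a myogenic transcription factor, was at 0.230 CPM in replicate 1 and 85.5 in replicate 2, the intermediate filament gene Des at 44.5 and 892, and the adhesion gene Cdh15 at 12.9 and 412. Replicate 1 was below all other 15 libraries in these 3 genes, and replicate 2 above all of them (Myog 0.234 to 22.4, Des 88.5 to 806, Cdh15 22.3 to 392 CPM). Myod1 and Chrna1 showed the same pattern. Myf5 and Pax7 were below the range in replicate 1 and within it in replicate 2. Itga7 (163 and 535 CPM against 95.6 to 579) lay within the range in both libraries. So did Vcam1 (190 and 164 CPM against 62.6 to 293), which was higher in replicate 1. Of the C2C12 myoblast markers, 9 of 10 were rows of the table, and their summed level was 437 and 2643 CPM in SRF-PDGFRB replicates 1 and 2 against 415 to 2266 CPM in the other 15 libraries. Which of the 2 is typical of the line cannot be told from 2 libraries, so values are given for each.

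All 9 genes were higher in both SRF-PDGFRB libraries than in any of the other 15, a pattern that 0.69% of all 15062 genes showed. The genes were listed with these comparisons in view, so the values are a description and carry no test. Among the GBP genes, Gbp2b was at 71.4 CPM in SRF-PDGFRB replicate 1 and 37.6 CPM in replicate 2, and between 0.193 and 3.43 CPM (median 0.545) in the other 15. Gbp2 was at 30.3 and 18.2 CPM, against 0.305 to 2.99 CPM (median 0.823). Gbp3 was at 30.0 and 19.5 CPM, against 0.261 to 1.65 CPM (median 0.714). For these 3 GBP genes replicate 1 was the higher library, by 1.90-fold, 1.66-fold and 1.54-fold. Gbp7 was at 15.6 and 11.7 CPM, against 0 to 4.68 CPM (median 0.363), and its gap was the narrowest among the GBP genes: the lower SRF-PDGFRB library was 2.5 times the highest other library, SRF-FOXO1 replicate 3.

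Among the IRG genes, the effector Iigp1 had the widest gap. It was at 49.5 and 39.4 CPM in SRF-PDGFRB (1078 and 885 counts) and at 0 to 0.714 CPM elsewhere, where its counts ran from 0 to 16 per library. The lower SRF-PDGFRB library was 55.2 times the highest other library. In SRF the gene had 1, 1 and 2 counts. The ratio of SRF-PDGFRB to SRF over summed counts, 741, rests on these 4 counts and carries no test. Outside SRF-PDGFRB only 2 libraries had 10 or more counts of Iigp1. Being in the count table, which asks for 10 counts in 3 libraries, was therefore not independent of being high in SRF-PDGFRB. Igtp was at 40.3 and 25.6 CPM against 0.0909 to 2.74 CPM, and Irgm2 at 22.6 and 18.2 CPM against 0.0963 to 2.28 CPM. Gm12185 was at 4.32 and 4.98 CPM against 0.174 to 1.28 CPM. The lower SRF-PDGFRB library was 9.34, 7.995 and 3.38 times the highest other library in Igtp, Irgm2 and Gm12185.

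Irgm1 differed from the other 8 in its level outside SRF-PDGFRB. It was at 15.5 to 38.8 CPM (median 25.4) in the 15 libraries, and at 53.9 and 64.9 CPM in SRF-PDGFRB. Its lower SRF-PDGFRB library was 1.39 times the highest other library, again SRF-FOXO1 replicate 3. Per kilobase of exon, Irgm1 had the highest mean level of the 9 genes in each of the 5 groups outside SRF-PDGFRB (3.70 CPM per kb in pMSCV, where Igtp came next at 0.389). In SRF-PDGFRB the order per kilobase was different: Gbp2b led at 19.3 CPM per kb, followed by Igtp at 16.3, Irgm1 at 10.2 and Gbp2 at 9.65, and Gm12185 was the lowest at 0.832. In this order the values of the 2 SRF-PDGFRB libraries did not overlap between Igtp (12.7 to 19.9 CPM per kb) and Irgm1 (9.27 to 11.2), between Irgm2 (4.94 to 6.13) and Gbp7 (2.08 to 2.77), or between Gbp7 and Gm12185 (0.773 to 0.892). All other neighbours overlapped.

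**Figure D1:**
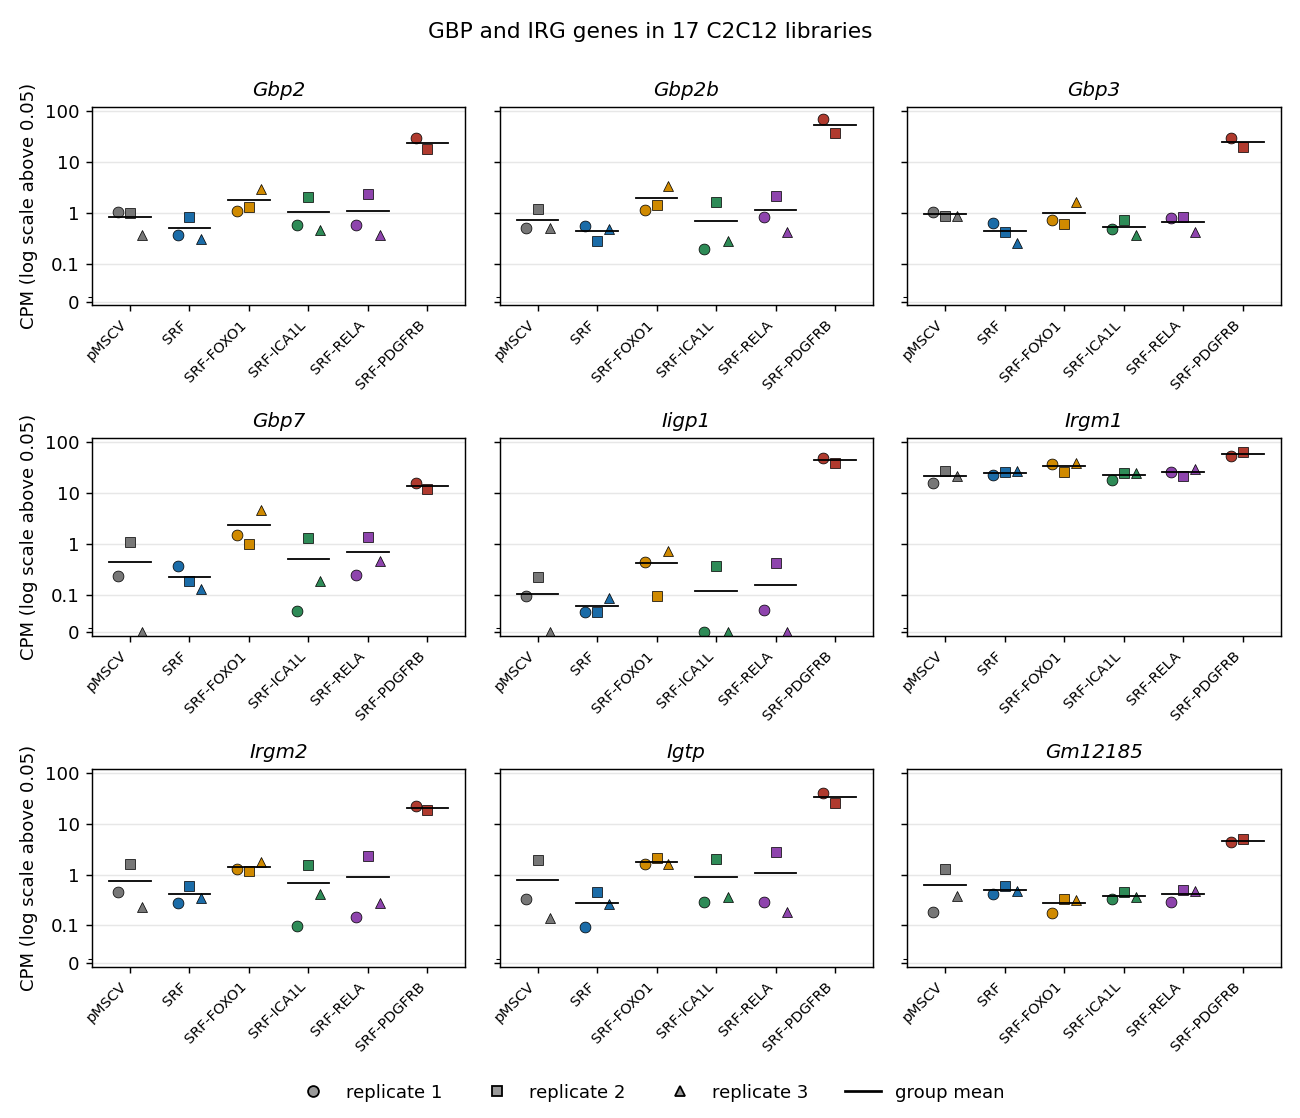
CPM of each GBP and IRG gene (vertical axis, log scale above 0.05 CPM, linear below) in the 17 libraries by group, with 1 point per library, the symbol giving the replicate number and the line the group mean. Both SRF-PDGFRB libraries lie above the other 15 in all 9 genes, and Irgm1 alone is above 15 CPM in every library.

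The median log2 fold change of the 9 genes in SRF-PDGFRB was 4.88 against pMSCV, 5.81 against SRF, 4.07 against SRF-FOXO1, 4.90 against SRF-ICA1L and 4.49 against SRF-RELA. The median of all genes was between 0.01 and 0.03 in these comparisons, which share the 2 SRF-PDGFRB libraries. The median was 5.85 without pMSCV replicate 2, 6.28 without SRF-ICA1L replicate 2 and 5.64 without SRF-RELA replicate 2 in the comparison with each of those lines. Against pMSCV the log2 fold changes were 4.88 for Gbp2 (SE 0.85), 6.19 for Gbp2b (SE 0.89), 4.71 for Gbp3 (SE 0.49), 4.96 for Gbp7 (SE 1.25), 8.64 for Iigp1 (SE 1.27), 1.46 for Irgm1 (SE 0.24), 4.73 for Irgm2 (SE 1.08), 5.37 for Igtp (SE 1.18) and 2.91 for Gm12185 (SE 0.57).

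Both SRF-PDGFRB libraries were above all 15 others in these genes, so within a replicate number only the size of the gap can differ, and it is given as a description. Among the 6 replicate 1 libraries, the SRF-PDGFRB value was 27.8 times the highest of the other 5 for Gbp2, 63.0 times for Gbp2b, 28.3 times for Gbp3, 10.5 times for Gbp7, 114 times for Iigp1, 17.9 times for Irgm2, 25.0 times for Igtp and 10.6 times for Gm12185. Among the 6 replicate 2 libraries these ratios were smaller, at 7.84, 17.2, 22.2, 8.55, 95.9, 7.995, 9.34 and 3.90 for the same genes in the same order. Irgm1 was 1.43 times the highest other library in replicate 1 and 2.40 times in replicate 2.

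Other genes of the families and of the interferon pathway were taken from lists made with earlier results known. Of 19 other GBP and IRG names, 8 were rows of the table (Irgm3, 1 of the 19, is Igtp itself). Of the 8, 4 were above all 15 other libraries in both SRF-PDGFRB libraries, against 0.69% of all genes. Gbp5 was at 8.49 and 3.69 CPM against 0 to 1.03 CPM, and Gbp9 at 19.7 and 6.54 CPM against 0 to 3.92 CPM. Tgtp1 and Tgtp2, IRG effectors that are near copies of each other, were at 10.7 and 8.45 CPM against 0 to 0.803 CPM, and at 12.6 and 11 CPM against 0 to 2.47 CPM. The count table keeps genes with 10 or more counts in 3 or more libraries. Gbp5, Tgtp1 and Tgtp2 met this minimum only with the SRF-PDGFRB libraries, while Gbp9 met it without them. For Gbp5, Tgtp1 and Tgtp2, being in the table was therefore not independent of being high in SRF-PDGFRB. Irgq, a more distant relative, was at 29.2 and 27.6 CPM, within 17.9 to 34.6 CPM. Gbp6 and Gbp10 were not analysed here.

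Of the 10 interferon receptor and JAK-STAT genes described, none lay above the other 15 libraries in both SRF-PDGFRB libraries. Of all genes, 0.69% did. Stat2 was at 38.8 and 39.3 CPM against 15.6 to 42.3 CPM (median 21.5). The 42.3 CPM was that of SRF-FOXO1 replicate 1, and the next highest library, SRF-RELA replicate 2, was at 24.6 CPM. Both SRF-PDGFRB libraries were thus above all the others but that 1. The receptor genes Ifngr1, Ifngr2, Ifnar1 and Ifnar2 and the kinase genes Jak1, Jak2 and Tyk2 all lay within the range of the other libraries. Among the interferon regulatory factors and related regulators it was 3 of 7: Irf7 at 12.6 and 5.74 CPM against 0.144 to 2.96, Irf9 at 17 and 16.4 against 7.13 to 15.7, and Nlrc5, an activator of MHC class I genes, at 13.7 and 8.32 against 1.40 to 6.87. Irf1 was above the range in replicate 1 (89.6 CPM) and within it in replicate 2 (41.6 CPM against 16.2 to 65.9).

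Downstream, 12 of 22 antiviral interferon-stimulated genes were above the other 15 libraries in both SRF-PDGFRB libraries, as were 5 of 13 MHC class I genes (H2-K1, H2-Q4, Psmb8, Psmb9 and Psmb10). The share of all genes was 0.69%. The antiviral list held 28 genes, of which 6 were not rows of the count table. Because the table asks for a minimum count, a gene low elsewhere may be a row only through SRF-PDGFRB. Cmpk2, among the 12, had a median of 0.0913 CPM in the other 15 libraries. How many of the 12 depend on this minimum was not tested. Mx1, an antiviral GTPase, was at 11.4 and 5.92 CPM against 0 to 0.732 CPM, and Rsad2, which encodes viperin, at 28.2 and 16.2 CPM against 0.0456 to 2.01 CPM. H2-K1, a classical MHC class I gene, was at 86.0 and 73.1 CPM against 24.2 to 70.9 CPM. None of the 15 genes for loading GTPases onto membranes was above the range in both libraries; among them were Atg5, at 39.8 and 46.0 CPM against 32.0 to 44.7, and Gabarapl2, at 33.5 and 41.2 CPM against 28.4 to 43.3. None of 9 negative regulators was either, with Socs1 at 10.7 and 6.36 CPM against 5.17 to 11.3 CPM. Of 12 listed interferon ligands and related cytokines 2 were measured, Il12a and Il18, and both lay within the range; the interferon genes themselves were not analysed here.

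Summed markers of other cell types lay within the range of the other 15 libraries, except that fibroblast markers were lower in SRF-PDGFRB replicate 1. Of 10 macrophage markers 4 were rows of the table, and their summed level was 30.2 and 15.7 CPM in SRF-PDGFRB replicates 1 and 2 against 15.4 to 35.0 CPM elsewhere. Csf1r, among them, was at 2.39 and 0.0890 CPM against 0.0461 to 2.20 CPM. Cd68, Lyz2 and Cd14 lay within the range in both libraries. The 1 lymphocyte marker measured, Cd79a, was at 0.276 and 0.0890 CPM against 0.0446 to 0.656 CPM. The 2 endothelial markers measured of 8 summed to 0.138 and 0.133 CPM, with Cdh5 at 0 in both. The 7 fibroblast markers measured of 8 summed to 447 and 2615 CPM against 783 to 7197 CPM. In bulk libraries a change in the number of cells that express a gene and a change in the level per cell cannot be told apart.

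**Figure D2:**
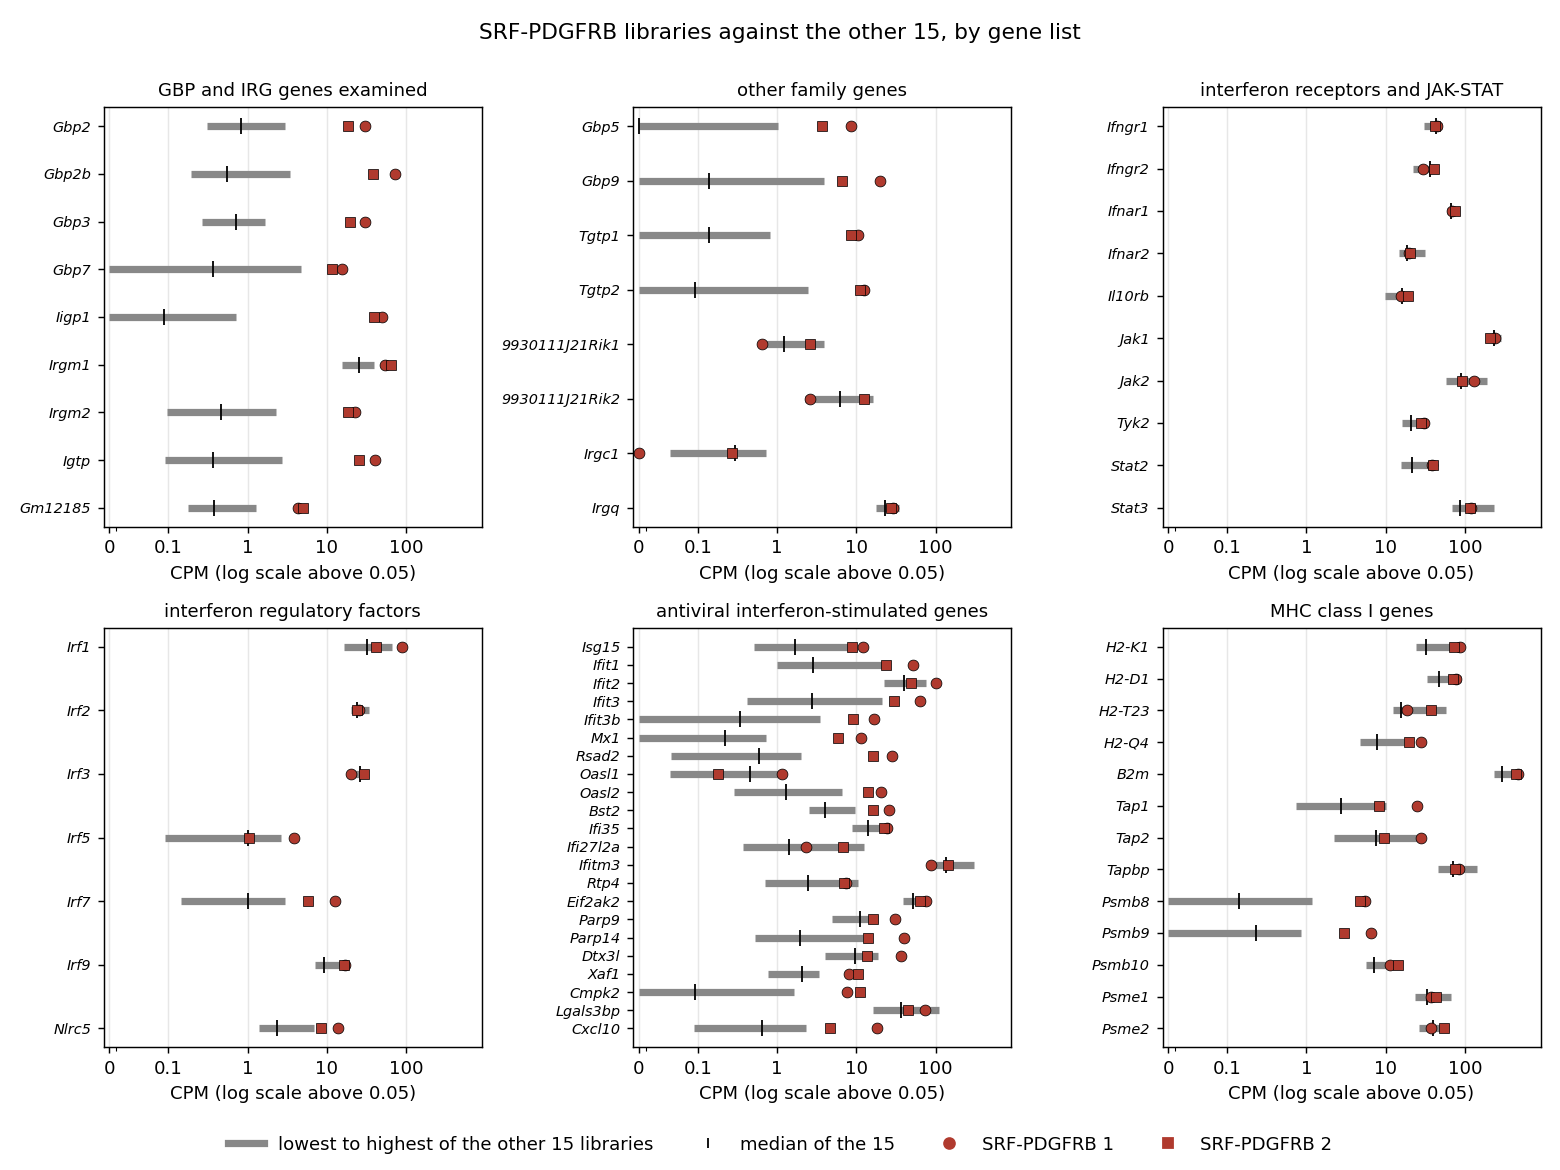
CPM (horizontal axis, log scale above 0.05 CPM, linear below) of the genes of 6 lists: the grey bar runs from the lowest to the highest of the 15 libraries outside SRF-PDGFRB, the tick is their median, and the red circle and square are SRF-PDGFRB replicates 1 and 2. The 9 GBP and IRG genes and 12 of 22 antiviral genes have both red points to the right of the bar, while none of the 10 receptor and JAK-STAT genes drawn do.

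Outside SRF-PDGFRB the highest levels were mostly in SRF-FOXO1, and the comparison of SRF-FOXO1 with SRF asks what the fusion changes relative to SRF itself. Gbp7 was at 1.48, 0.985 and 4.68 CPM in SRF-FOXO1 replicates 1, 2 and 3 and at 0.363, 0.183 and 0.131 CPM in SRF. Gbp2b was at 1.13, 1.45 and 3.43 CPM against 0.545, 0.274 and 0.479 CPM. Igtp was at 1.61, 2.11 and 1.61 CPM against 0.0909, 0.457 and 0.261 CPM. Gbp2, Gbp2b, Gbp7, Iigp1, Irgm2 and Igtp were higher in every SRF-FOXO1 library than in every SRF library, a pattern that 17.1% of all genes showed in this comparison. Gm12185 went the other way, at 0.174, 0.328 and 0.312 CPM in SRF-FOXO1 against 0.409, 0.594 and 0.479 CPM in SRF, and 18.3% of all genes were lower in every library.

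None of the 9 genes passed an adjusted p of 0.05 in SRF-FOXO1 against SRF (edgeR's quasi-likelihood test, Benjamini-Hochberg over 15062 genes) or in DESeq2, and 0.00664% of all genes did in edgeR. The smallest adjusted p among them was 0.198, for Gbp7, with a log2 fold change of 3.37 (SE 1.19). The log2 fold changes were 2.69 for Igtp (SE 1.11), 2.69 for Iigp1 (SE 1.28), 2.20 for Gbp2b (SE 0.78), 1.84 for Gbp2 (SE 0.76), 1.77 for Irgm2 (SE 0.98), 1.19 for Gbp3 (SE 0.45), 0.44 for Irgm1 (SE 0.22) and -0.85 for Gm12185 (SE 0.57). The value for Iigp1 rests on 1, 1 and 2 counts in SRF. The median of the 9 was 1.84, and that of all genes was 0.01. At an unadjusted p under 0.05 there were 5 of 9 (Gbp2, Gbp2b, Gbp3, Gbp7 and Igtp), beside 19.2% of all genes. This count fell to 1 without SRF-FOXO1 replicate 3, to 2 without SRF replicate 3, and to 3 without either of the other SRF libraries. It was 8 with a replicate block over 17 libraries, in which again no gene of the 9 passed the adjusted threshold.

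Against pMSCV, SRF-FOXO1 again showed higher values in 8 of the 9 genes, with a median log2 fold change of 1.13 and none called (0.71% of all genes were called). Irgm1 was at 37.6, 26.0 and 38.8 CPM in SRF-FOXO1 and 15.5, 27.1 and 22.0 CPM in pMSCV, so the groups overlapped, and its log2 fold change was 0.67 (SE 0.22, adjusted p 0.120). Gbp7 had a log2 fold change of 2.45 (SE 1.12, adjusted p 0.232), and these 2 genes had an unadjusted p under 0.05, as did 20.9% of all genes. Gbp2 was the gene whose SRF-FOXO1 libraries (1.09, 1.31 and 2.99 CPM) all lay above pMSCV (1.06, 1.01 and 0.374 CPM), as did those of 11.4% of all genes. Jak2, the kinase on the interferon gamma receptor, was the 1 gene of the interferon pathway lists called in this comparison: SRF-FOXO1 averaged 154 ± 36.1 CPM against 69.4 ± 10.4 CPM in the vector control (SD over 3 libraries each), a log2 fold change of 1.15 (SE 0.21, adjusted p 0.0336 in edgeR).

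Marker lists also differed between these groups. The summed myoblast markers were at 415 to 522 CPM in SRF-FOXO1, against 943 to 1626 CPM in SRF and 1875 to 2266 CPM in pMSCV, and Itga7, an integrin of myoblasts, was called lower against pMSCV (log2 fold change -2.06, SE 0.36, adjusted p 0.0336). The 4 macrophage markers summed to 28.3 to 35.0 CPM in SRF-FOXO1, against 15.8 to 20.9 CPM in SRF and 17.6 to 23.7 CPM in pMSCV. None of the 4 was called in either comparison. Cd68 had log2 fold changes of -0.21 against SRF and -0.28 against pMSCV, while those of Csf1r, Lyz2 and Cd14 were above 0 in both. The 7 fibroblast markers summed to 904 to 7197 CPM in SRF-FOXO1, against 1000 to 2010 CPM in SRF. Their part in the GBP and IRG values was not tested.

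**Figure D3:**
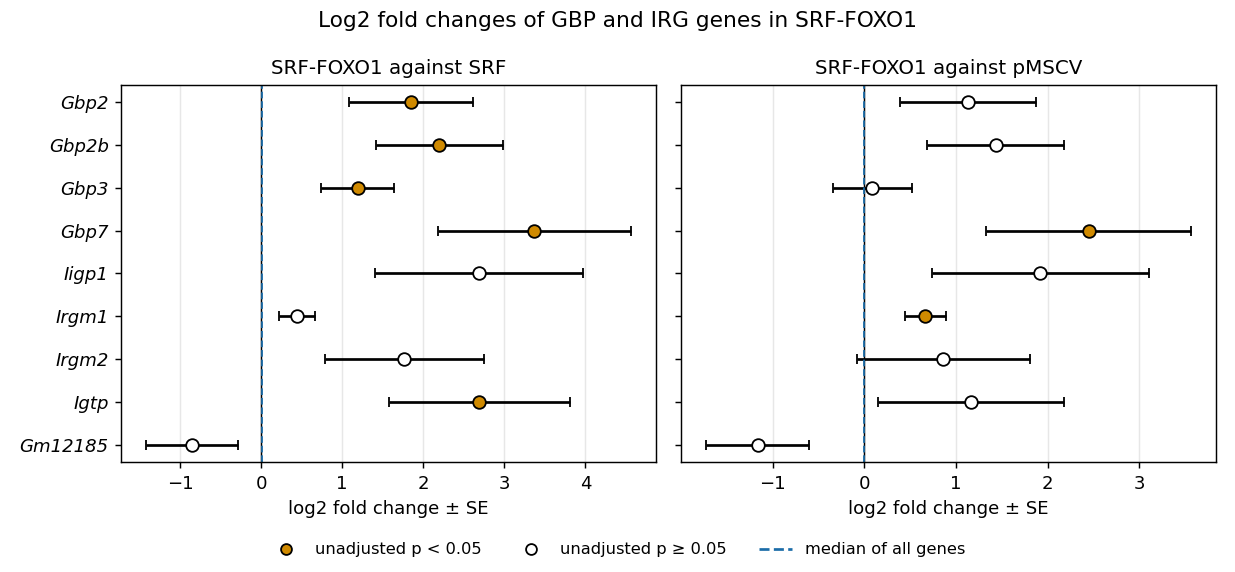
Log2 fold change with its SE (horizontal axis) of the 9 genes in SRF-FOXO1 against SRF and against pMSCV, from edgeR's fit to 17 libraries; filled points have an unadjusted p under 0.05 and the dashed line is the median of all genes. Values are above 0 for 8 of 9 genes in both panels, from 0.44 to 3.37 against SRF, Gm12185 is below 0 in both, and no gene passed the adjusted threshold.

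In the other 8 comparisons outside SRF-PDGFRB, none of the 9 genes was called by edgeR or DESeq2 either, while in edgeR 0.00664% of all genes were in SRF against pMSCV, 0.00664% in SRF-RELA against SRF and 0% in the other 6. The genes with an unadjusted p under 0.05 were Gbp3 in SRF against pMSCV (3.34% of all genes) and Irgm1 in SRF-FOXO1 against SRF-ICA1L (5.94% of all genes). In the other 6 there was none, against 6.23% of all genes in SRF-ICA1L and 8.05% in SRF-RELA against pMSCV, 1.56% and 3.21% in these lines against SRF, 2.51% in SRF-FOXO1 against SRF-RELA and 0.159% in SRF-ICA1L against SRF-RELA. SRF had lower values than pMSCV in 8 of 9 genes, with a median log2 fold change of -0.77. SRF-ICA1L lay close to pMSCV, at 5 higher and 4 lower with a median of 0.07. SRF-RELA had higher values in 7 of 9 with a median of 0.42, and no value of SRF-ICA1L against SRF-RELA was above -0.09.

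In each of 3 comparisons with pMSCV, which share its 3 libraries, Gbp3 was the 1 gene of the 9 whose libraries lay wholly below. It was at 1.06, 0.882 and 0.888 CPM in pMSCV, and each SRF (0.636, 0.411 and 0.261 CPM), SRF-ICA1L (0.481, 0.714 and 0.366 CPM) and SRF-RELA library (0.783, 0.821 and 0.420 CPM) was lower. Of all genes, 5.15%, 5.54% and 5.91% were lower in every library in these comparisons, so 1 of 9 is not read as a result about Gbp3. The log2 fold changes were -1.10 in SRF (SE 0.45, adjusted p 0.990), -0.85 in SRF-ICA1L (SE 0.45, adjusted p 0.831) and -0.48 in SRF-RELA (SE 0.44, adjusted p 0.877), none past the threshold. These values rest on 6 to 23 counts a library.

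Among the lines whose replicate numbers pair (pMSCV, SRF, SRF-RELA and SRF-ICA1L, 12 libraries), a fit with a replicate block called none of the 9 genes in any of the 6 comparisons. Of all genes it called 0.0133% in SRF against pMSCV, 2.81% in SRF-ICA1L against pMSCV, 6.07% in SRF-RELA against pMSCV, 0.0929% in SRF-ICA1L against SRF, 0.657% in SRF-RELA against SRF and 0% between SRF-ICA1L and SRF-RELA. Some genes of the pathway lists were among them. The 12 libraries were chosen from correlations in these data, so these calls are a description and no independent test. The fit to 17 libraries without a block called 0% of all genes for either fusion against pMSCV. It called none of the genes named below against SRF. With the block, Nlrc5, H2-K1 and Aim2, a sensor of cytosolic DNA, were lower than in pMSCV in both SRF-ICA1L and SRF-RELA. The log2 fold changes were -1.57 and -1.28 for Nlrc5 (adjusted p 0.0341 and 0.0466 in edgeR). They were -1.10 and -0.95 for H2-K1 (0.0129 and 0.0113), and -1.75 and -2.09 for Aim2 (0.00523 and 0.00103). Against SRF, Aim2 was lower in both as well (-1.40 and -1.73). Several myoblast markers were called lower against pMSCV in both lines (Myod1, Myog, Des, Cdh15, Chrna1 and Itga7), and Myf5 in SRF-RELA, where the macrophage marker Lyz2 was higher (2.42). Cdh15 was called lower (-1.31) and Lyz2 higher (2.58) in SRF-RELA against SRF. The other macrophage markers measured, Cd68, Csf1r and Cd14, were not called in SRF-RELA against pMSCV or SRF. Their log2 fold changes were -0.61, 1.25 and 0.28 against pMSCV and -0.51, 0.52 and 0.44 against SRF. The part of these markers in the GBP and IRG values was not tested.

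In pMSCV, SRF-ICA1L and SRF-RELA the spread of most of the 9 genes followed replicate number. Igtp was at 1.90 CPM in pMSCV replicate 2 and at 0.323 and 0.140 CPM in replicates 1 and 3, at 2.01 CPM in SRF-ICA1L replicate 2 against 0.289 and 0.366 CPM, and at 2.74 CPM in SRF-RELA replicate 2 against 0.294 and 0.187 CPM. Irgm2 in SRF-RELA was at 2.28 CPM in replicate 2 and 0.147 and 0.280 CPM in the others. Replicate 2 was the highest of its group for 7 of 9 genes in pMSCV (39.5% of all genes), 8 in SRF-ICA1L (37.2%) and 8 in SRF-RELA (39%), but for 4 in SRF (31.3%) and 2 in SRF-FOXO1 (38.1%).

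A comparison of replicate 2 with the mean of replicates 1 and 3 in the 12 libraries, with group as a term, was added after these values were seen. The 12 libraries were also chosen from correlations in these data. Its p-values therefore describe a pattern already noticed and are no independent test of it. The comparison called 6 of the 9 genes higher and none lower, where 22.8% of all genes were called higher (edgeR's quasi-likelihood test, adjusted over all genes). They were Igtp (log2 fold change 2.73, SE 0.35), Iigp1 (2.71, SE 0.79), Irgm2 (2.33, SE 0.40), Gbp7 (2.15, SE 0.60), Gbp2 (1.60, SE 0.30) and Gbp2b (1.40, SE 0.43), with adjusted p from 0.00059 to 0.0234. The value of Iigp1 rests on 29 counts over the 12 libraries, with at most 9 in any of them. Outside SRF-PDGFRB only 2 libraries had 10 or more counts of Iigp1, so it met the count table's minimum of 10 counts in 3 libraries only with the SRF-PDGFRB libraries, while the other 8 genes met it without them. Gm12185 (0.92, adjusted p 0.0555), Gbp3 (0.27, adjusted p 0.433) and Irgm1 (0.11, adjusted p 0.505) did not pass. The count was 3 without the SRF-ICA1L libraries, 3 without the SRF-RELA libraries and 2 with the SRF-FOXO1 libraries included.

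In the same comparison 13 of 22 antiviral genes were called higher and none lower, as were 10 of 13 MHC class I genes, 5 of 10 receptor and JAK-STAT genes and 4 of 7 interferon regulatory factors. Of all genes, 22.8% were called higher, and the lists were made with earlier results known. Parp14 (2.68), Ifit3 (2.18) and Tap1, a peptide transporter for MHC class I (2.09), had large log2 fold changes, and Irf1 (0.96) a smaller one. Of the macrophage markers, Lyz2 was called higher (2.77), while Cd68 (0.08), Csf1r (0.56) and Cd14 (0.22) were not called. Of 7 fibroblast markers 3 were called higher, and myoblast markers were called in both directions (Pax7 and Vcam1 higher, Myod1 and Cdh15 lower). The part of these markers in the result was not tested. What a replicate number stands for, such as a day or a batch, is not given in the sources used here.

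**Figure D4:**
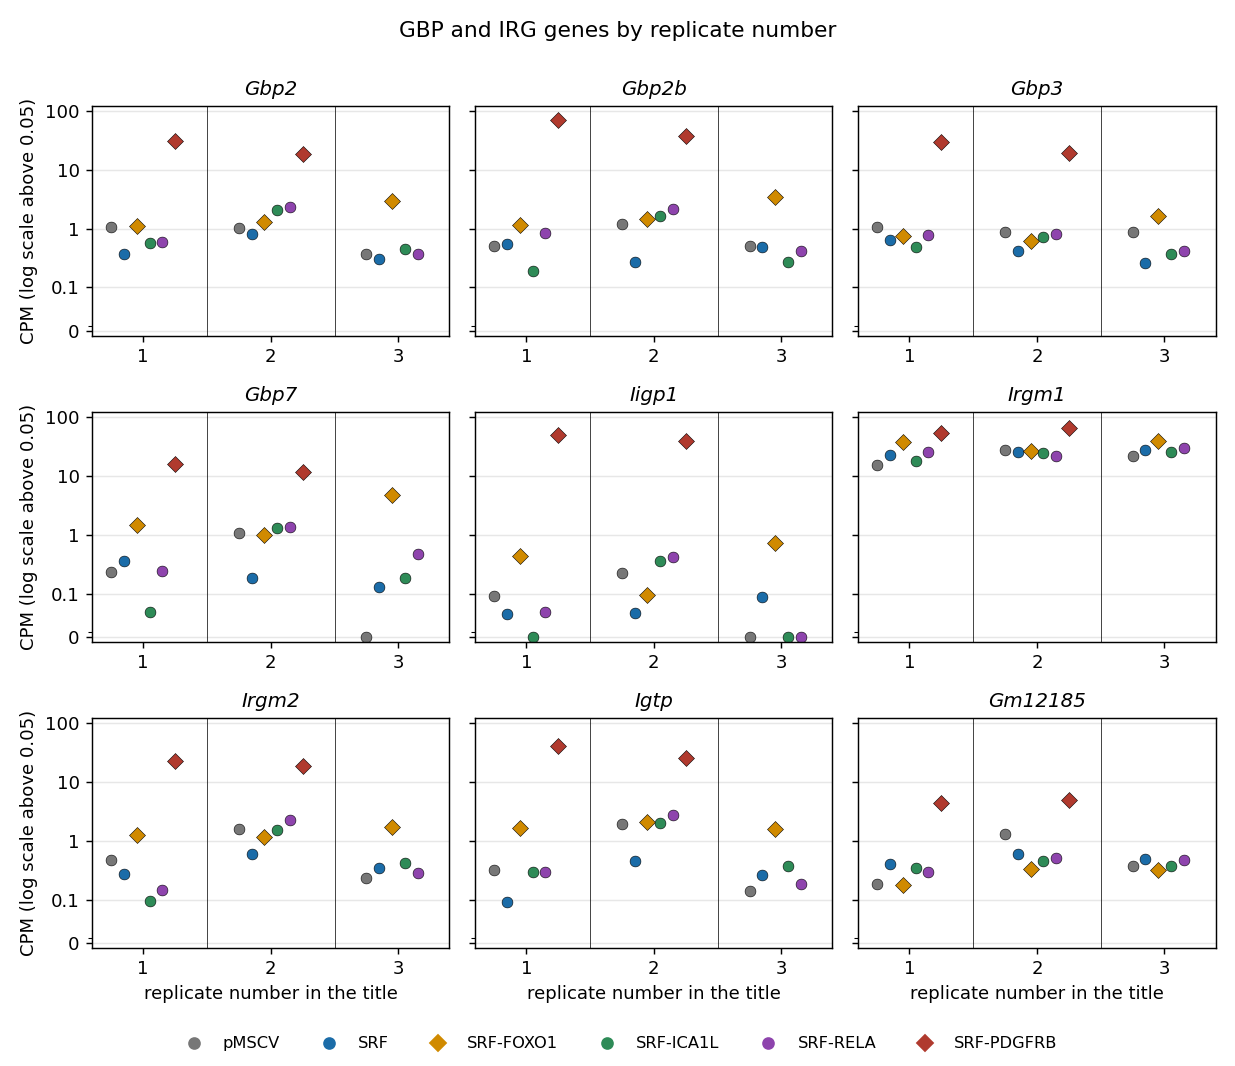
CPM of each gene (vertical axis, log scale above 0.05 CPM, linear below) by replicate number, with 1 point per library coloured by group; circles are the 4 groups of the replicate comparison and diamonds are SRF-FOXO1 and SRF-PDGFRB. In Igtp and Irgm2 the replicate 2 circles of pMSCV, SRF-ICA1L and SRF-RELA stand above the replicate 1 and 3 circles of the same colours, as with 1.90 against 0.323 and 0.140 CPM for Igtp in pMSCV.

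Over the 15 libraries outside SRF-PDGFRB, the genes differed in how closely they followed one another. The median Pearson r of log2 CPM with the other 8 genes was 0.84 for Iigp1, 0.82 for Irgm2, 0.81 for Gbp2 and for Gbp7, and 0.80 for Gbp2b and for Igtp. It was 0.48 for Gbp3, 0.38 for Irgm1 and 0.03 for Gm12185. Some of their pairs were higher, such as Gbp3 with Gbp2b (0.69) and Irgm1 with Gbp7 (0.60). With the group means removed, the median was 0.73 to 0.80 for the first 6 genes, 0.40 for Gbp3 and 0.18 for Irgm1, while that of Gm12185 was 0.46, with a highest value of 0.61 for its pair with Igtp. The highest r of a pair, 0.92, was that of Irgm2 and Igtp, which share exon bases and a near-identical promoter window. These values are descriptive, since the libraries share groups and replicate numbers.

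The 10 genes outside the set whose log2 CPM was most like the mean of the 9 over these 15 libraries, among 12550 genes with a mean of at least 1 CPM, were Coq8a, Tmem167b, Insig2, Itm2b, Mindy4, Wdr19, Nucb1, Aldh6a1, Tmem175 and Snapin (Pearson r 0.96 to 0.97). None of them is on the interferon lists used here. All 10 lay within the range of the other 15 libraries in both SRF-PDGFRB libraries: Coq8a was at 3.44 and 2.40 CPM against 0.318 to 5.80 CPM, and Itm2b at 484 and 441 CPM against 240 to 1047 CPM.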

How the data were processed

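The 17 C2C12 libraries were made with the TruSeq Stranded mRNA kit and read on a NovaSeq instrument, per the labels' protocols. Per the submitters' processing notes, the tools were FastQC 0.11.8, Trimmomatic 0.39, HISAT2, featureCounts and Subread 2.0.0, with build GRCm38; options, annotation and the use of strand are not given in the sources used here. The authors deposited raw counts per gene. All genes of the table have 10 or more counts in 3 or more libraries; genes on only in SRF-PDGFRB, which has 2, could not meet that. Groups and replicate numbers came from the titles. Coordinates are those of GENCODE M21 and of RefSeq's GRCm38.p6 table.

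Counts of 15062 genes in all 17 libraries were fitted in edgeR 4.0.16 (limma 3.58.1, R 4.3.3) with TMM scaling, robust quasi-likelihood dispersions and a term for group. Benjamini-Hochberg adjustment ran over all genes in each of the 15 comparisons, with calls at an adjusted p under 0.05. The 10 comparisons without SRF-PDGFRB were tested, and the other 5 are described. The script was tested on simulated data. The biological coefficient of variation was 36.5%. Alternatives were DESeq2 1.42.0, RLE factors, a filter of 1 CPM in 2 libraries, fits on fewer libraries, a replicate block and leaving out each library. Within groups, libraries differed by a chi-square per degree of freedom of 31.5 to 200, so none was counted as a duplicate. Log2 CPM used a prior count of 2.

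Same-numbered libraries of 4 groups (pMSCV, SRF, SRF-RELA, SRF-ICA1L) deviated together from their group means (r across genes 0.392 to 0.789 in all 18 pairs). Pairs with SRF-FOXO1 gave -0.195 to 0.501. Over the members alone, r in the 18 pairs ran from -0.125 (SRF with SRF-RELA, replicate 3) to 0.864 (SRF-ICA1L with SRF-RELA, replicate 2). The pairing comes from the correlations across all genes, and not every pair showed it in the members. The members and the gene lists were chosen with earlier results of these data known, and 1 list gene is not reported here. All members are named; list genes are named where called, or as part of a set chosen with the lists, and others after their values were seen.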

Additional observations from a re-analysis of the deposited data

Results flagged for a closer look

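The Gbp3 libraries lay on opposite sides of pMSCV in different lines. Both SRF-PDGFRB libraries were above every pMSCV library, with a log2 fold change of 4.71, a value from the contrast that chose the genes. Every SRF, SRF-ICA1L and SRF-RELA library was below, with log2 fold changes of -1.10, -0.85 and -0.48 (adjusted p 0.990, 0.831 and 0.877 in edgeR). All of these comparisons use the same 3 pMSCV libraries, between 5.15% and 5.91% of all genes were lower in every library in each of the last 3, and the difference between the lines was not tested.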

How the results depend on the processing

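The number of genes called was 0 in all 10 tested comparisons under every alternative run: DESeq2, RLE factors, the CPM filter, fits on fewer libraries, the replicate block and each library left out. At an unadjusted p under 0.05 the count ran from 1 to 8 of 9 in SRF-FOXO1 against SRF, from 1 to 4 against pMSCV and from 0 to 7 against SRF-ICA1L. The replicate block over 17 libraries, in 12 libraries and in SRF-FOXO1 with SRF alone gave 0 called as well. With 1 library left out at a time, the median log2 fold change in SRF-PDGFRB ran from 4.54 to 5.85 against pMSCV, 5.46 to 6.18 against SRF, 3.83 to 4.23 against SRF-FOXO1, 4.38 to 6.28 against SRF-ICA1L and 4.06 to 5.64 against SRF-RELA. The replicate 2 comparison, added after the data were seen, called 6 genes, 2 with all 15 libraries of the groups with 3, 3 without SRF-ICA1L and 3 without SRF-RELA; the cause was not tested. Values that changed sign were those of Gbp3 in SRF-FOXO1 against pMSCV (-0.48 without SRF-FOXO1 replicate 3 to 0.34 without replicate 2) and of Irgm1 in the replicate 2 comparison (-0.016 with 15 libraries, -0.053 without pMSCV). Outside SRF-PDGFRB the 8 genes other than Irgm1 had 0 to 105 counts a library and Irgm1 336 to 870; the part of depth in the absence of calls was not tested.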
